A study of Mus musculus with 17 samples.

Results

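The subject is a group of 7 genes that mark a transitional state of the lung epithelium: the keratins Krt8, Krt18, Krt7 and Krt19, the tight junction gene Cldn4, the cell cycle gene Sfn and the integrin gene Itgb6. They were taken by symbol from a table of read counts that lists 45777 genes, each symbol had 1 row, and all 7 passed the filter on low counts that left 22052 genes for testing. The 17 libraries came from lungs of male wild-type C57BL/6 mice, which were 6 weeks old when obtained. The left lung received 65 Gy or 75 Gy in 1 focal fraction from an image-guided irradiator, and control mice were not irradiated. Lungs were collected after 2 weeks, which the study treats as the inflammation stage, or after 6 weeks, its fibrosis stage. There were 3 libraries each for control, 65 Gy and 75 Gy at 2 weeks and for control and 75 Gy at 6 weeks, and 2 for 65 Gy at 6 weeks, of which another library was not analysed here. RNA of irradiated lungs was taken from the lesions, so that irradiated and control libraries can differ in the piece of lung as well as in dose, and the sources used here do not state whether each library is 1 mouse. The p-values therefore set differences between groups against the spread between these libraries, pooled over the groups. They do not separate dose from the piece of lung.

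Alveoli are lined by flat type 1 cells, which exchange gas, and by cuboidal type 2 cells, which make surfactant and serve as progenitors. After injury, type 2 cells that become type 1 cells pass through an intermediate state with high Krt8, Cldn4 and Sfn, often with p53 activity, and in fibrotic lung such cells can persist. Krt8 and Krt18 pair into the intermediate filaments of simple epithelia, in which Krt7 is another type II partner and Krt19 another type I partner. Claudin 4 seals tight junctions, stratifin (the sigma member of the 14-3-3 family, encoded by Sfn) is induced by p53 and holds cells at the G2 checkpoint, and the integrin beta subunit encoded by Itgb6 joins the alpha v subunit to activate latent TGF-beta on epithelium. All of these genes are also used by epithelium at rest, and in bulk RNA more cells of a type and more RNA per cell cannot be told apart.

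The library totals lay between 46764569 and 66797879 counts (median 57608149), and each member had at least 115 counts in every library. Libraries are named by group and by the number in their label. In pairwise chi-square comparisons of the counts, library 3134 of 75 Gy at 2 weeks stood apart from the other two of its group (218 and 124 per degree of freedom), and library 3126 of the 2-week controls from its own (101 and 106); the other pairs gave 12.9 to 90.7, so that no library was a copy of another. The defining genes of lung epithelium were present as the tissue label says: in every library the type 2 gene Sftpc was at 8368 CPM or more, the type 1 gene Ager at 1160 CPM or more and the club cell gene Scgb1a1 at 5307 CPM or more. CPM is a gene's count as a share of the library total, after scaling of the totals by TMM factors.

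The promoters of 4 members are shown because their values carry the results given here: Cldn4 and Sfn, which were called changed, and Krt8 and Krt18, whose profiles over the libraries were nearest to each other. Each runs 5′ to 3′ in the direction of the gene, from 250 bases before the annotated start to 50 bases from it (RefSeq, GRCm38.p6). Of the 7 members, 6 matched an entry by symbol, and Krt19 did not. Capitals mark TGANTCA, the AP-1 type sequence, in Cldn4 and TATAAA on either strand in Krt8.
Cldn4, chr5:134946885-134947184, minus strand: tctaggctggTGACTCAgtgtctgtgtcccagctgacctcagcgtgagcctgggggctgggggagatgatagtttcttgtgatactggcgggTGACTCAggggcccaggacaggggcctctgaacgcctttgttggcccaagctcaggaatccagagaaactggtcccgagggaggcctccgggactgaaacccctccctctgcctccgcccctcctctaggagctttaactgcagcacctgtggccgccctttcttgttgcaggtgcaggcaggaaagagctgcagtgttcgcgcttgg
Sfn, chr4:133602119-133602418, minus strand: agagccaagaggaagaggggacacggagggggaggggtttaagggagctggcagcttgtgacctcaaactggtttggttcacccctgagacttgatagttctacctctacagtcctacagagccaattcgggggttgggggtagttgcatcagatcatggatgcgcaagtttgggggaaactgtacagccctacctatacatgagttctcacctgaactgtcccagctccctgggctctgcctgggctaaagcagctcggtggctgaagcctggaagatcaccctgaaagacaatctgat
Krt8, chr15:102004293-102004592, minus strand: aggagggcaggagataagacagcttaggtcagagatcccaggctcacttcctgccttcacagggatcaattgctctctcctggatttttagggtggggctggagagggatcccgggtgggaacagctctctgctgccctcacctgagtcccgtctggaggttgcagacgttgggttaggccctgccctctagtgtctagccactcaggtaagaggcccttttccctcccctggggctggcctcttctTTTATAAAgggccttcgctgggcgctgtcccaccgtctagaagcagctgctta
Krt18, chr15:102027966-102028265, plus strand: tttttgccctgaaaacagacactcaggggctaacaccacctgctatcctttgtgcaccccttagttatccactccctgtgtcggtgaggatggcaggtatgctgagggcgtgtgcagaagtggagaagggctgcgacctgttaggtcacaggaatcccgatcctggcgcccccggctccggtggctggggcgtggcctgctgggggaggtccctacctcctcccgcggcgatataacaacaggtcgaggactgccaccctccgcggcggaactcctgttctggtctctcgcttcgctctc
The Cldn4 window held 2 matches to TGANTCA, 240 and 158 bases before the start, and the windows of Krt8, Krt18, Krt7, Sfn and Itgb6 held none. Among 32851 promoter windows of the same length, 7.81% had at least 1 such match and 0.460% at least 2. The capitals in Krt8 are 2 overlapping matches on opposite strands, the later of which begins 1 base before the annotated start; 13.6% of all windows had at least 1. CAGACA, a SMAD-type element that 21.0% of windows contain, occurred once each in Krt18, Krt7 and Cldn4, 235, 171 and 232 bases before the start, and CCAAT (37.4% of windows) once in Sfn, 128 bases before it. GGGCGG, the GC box found in 35.7% of windows, was matched 4 times in Krt7 and 2 times in Cldn4, and not in the 4 other members searched. Both strands were searched, and these matches describe letters and not bound sites.

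Krt8 (GeneID 16691) lies at chr15:101996711-102004342 on the minus strand and Krt18 (GeneID 16668) at chr15:102028216-102032026 on the plus strand, so that the genes of this filament pair point away from each other with 23873 bases between them. Krt7 (GeneID 110310) is on the same chromosome at chr15:101412403-101427806. Krt19 (GeneID 16669) lies at chr11:100140810-100145926, Cldn4 (GeneID 12740) at chr5:134945123-134946934, Sfn (GeneID 55948) at chr4:133600556-133602168 and Itgb6 (GeneID 16420) at chr2:60598292-60722603, all in GRCm38.p6. Gm33436, which overlaps Itgb6 on the opposite strand, had 0 to 19 counts per library against 2650 or more for Itgb6. Whether counting used strand is not given in the sources used here, so reads of Itgb6 and Gm33436 cannot be told apart. Krt8 also has a listed pseudogene, Krt8-ps, and each library had 87.1 to 145 counts of Krt8 for each count of Krt8-ps; reads that fit both could be assigned to either.

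Cldn4 and Sfn were the members that changed most. Cldn4 was higher in every irradiated library than in the controls of the same time, 2.99-fold at 65 Gy and 5.14-fold at 75 Gy after 2 weeks, and Sfn was 2.12-fold higher at 75 Gy. Krt8 and Krt18 rose at 6 weeks after 75 Gy, by 1.71-fold and 1.88-fold. At 2 weeks after 75 Gy they were at 1.14-fold and 1.28-fold, which did not pass, and a difference between the times was not established. The log2 fold changes of Krt7 lay between -0.09 and 0.01. A gene was said to rise or fall when its p-value from edgeR's quasi-likelihood test, adjusted by Benjamini-Hochberg over the 22052 genes, was at most 0.05, and was called when the log2 fold change was also at least 1 in size. At 75 Gy, 2 of the 7 members were called higher at 2 weeks, against 5.67% of all genes tested, and 2 at 6 weeks, against 7.28%. At 65 Gy, 1 was called higher at 2 weeks (3.47% of all genes) and 0 at 6 weeks (4.34%). For 65 Gy at 6 weeks, 6 members reached an unadjusted p under 0.05 in the quasi-likelihood test, as did 6485 of the 22052 genes. DESeq2 called 1 member there, and 1337 of all genes. No member was called lower. With the adjusted p alone, 2 members rose at 75 Gy at 2 weeks (11.8% of all genes rose), 5 at 75 Gy at 6 weeks (18.0%), 2 at 65 Gy at 2 weeks (6.70%) and 2 at 65 Gy at 6 weeks (7.66%). The 2 doses at a given time share their control libraries.

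**Figure D1:**
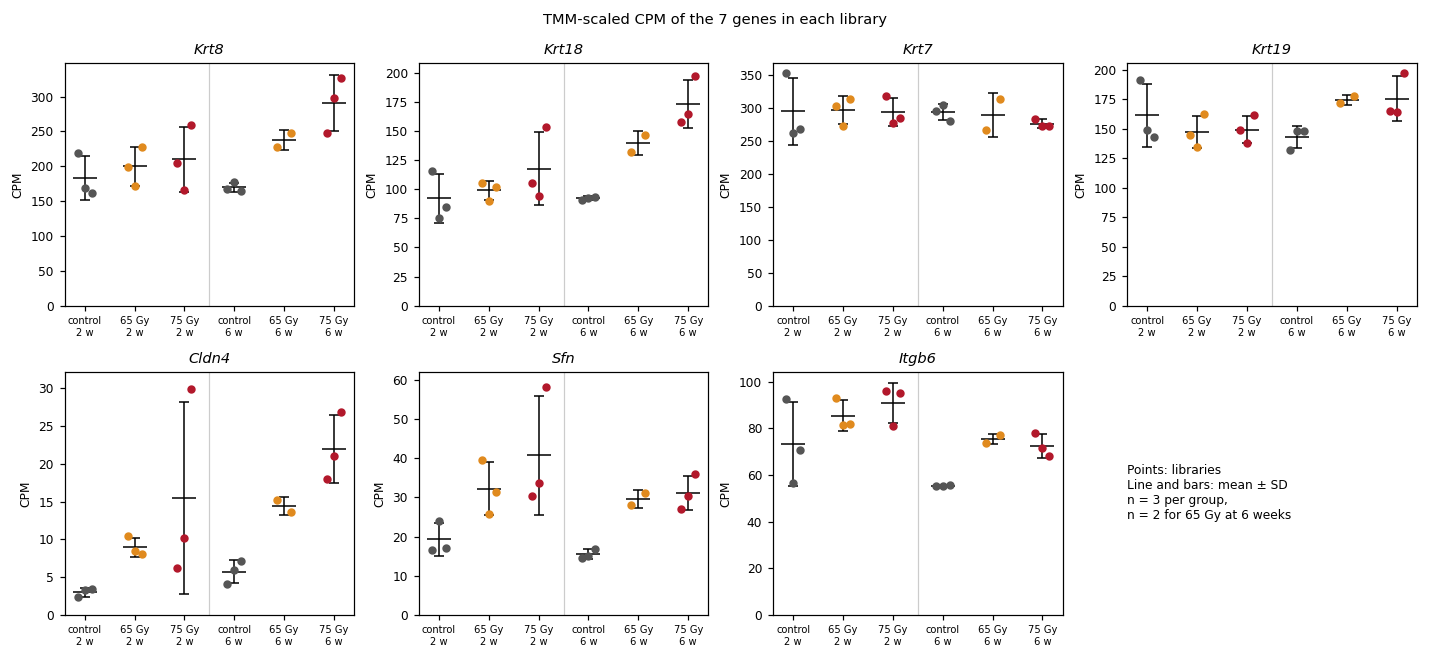
CPM of each of the 7 genes (vertical axes, each from 0) in the 6 groups (horizontal axes), with a point per library and the mean ± SD. Cldn4 and Sfn lie higher in irradiated groups at both times, Krt8 and Krt18 at 6 weeks, and Krt7 is level.

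The median log2 fold change of the 7 members was 0.31 at 75 Gy and 2 weeks, 0.78 at 75 Gy and 6 weeks, 0.12 at 65 Gy and 2 weeks and 0.49 at 65 Gy and 6 weeks. Over all genes tested it lay between -0.01 and 0.04. At 6 weeks the irradiated libraries of 6 members were all above all control libraries, after 75 Gy (29.4% of all genes did the same) and after 65 Gy (28.2%), and Krt7 was the exception at either dose. At 2 weeks this held for 2 members, Cldn4 and Sfn, after 75 Gy (15.5% of all genes) and after 65 Gy (15.9%).

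Cldn4 encodes claudin 4, a barrier claudin that distal airway and injured alveolar epithelium make. At 2 weeks it measured 2.33, 3.23 and 3.43 CPM in the controls, 10.4, 8.44 and 8.07 CPM after 65 Gy and 6.23, 10.1 and 30.0 CPM after 75 Gy. At 6 weeks it measured 4.04, 5.95 and 7.12 CPM in the controls, 15.2 and 13.6 CPM after 65 Gy and 18.03, 21.0 and 26.9 CPM after 75 Gy. The irradiated and control libraries did not overlap at either time, and library 3134 was the highest of 75 Gy at 2 weeks by far. The log2 fold change was 2.36 (SE 0.43, adjusted p = 0.00146) for 75 Gy at 2 weeks and 1.95 (SE 0.42, adjusted p = 0.00246) at 6 weeks, by the quasi-likelihood test. For 65 Gy it was 1.58 (SE 0.43, adjusted p = 0.0280) at 2 weeks and 1.34 (SE 0.45, adjusted p = 0.0573) at 6 weeks. Without library 3134 the 75 Gy value at 2 weeks was 1.45 (adjusted p = 0.00178), and the call for 65 Gy at 2 weeks was lost whichever of its 6 libraries was left out (adjusted p from 0.0545 to 0.0928).
The group means of Cldn4 rose in the order control at 2 weeks (3.0 CPM), control at 6 weeks (5.70), 65 Gy at 2 weeks (8.96), 65 Gy at 6 weeks (14.4), 75 Gy at 2 weeks (15.4) and 75 Gy at 6 weeks (21.99). The libraries of 75 Gy at 2 weeks overlapped both neighbours in this order, 65 Gy at 6 weeks and 75 Gy at 6 weeks, and the other neighbours did not overlap. Between the control times the log2 difference was 0.93 (SE 0.43, adjusted p = 0.315, edgeR's quasi-likelihood test), which did not pass; 0.576% of all genes were called between the 2 control groups.

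Sfn encodes stratifin. It measured 16.5, 24.1 and 17.1 CPM in the controls at 2 weeks, 39.5, 25.9 and 31.4 CPM after 65 Gy and 30.4, 33.6 and 58.3 CPM after 75 Gy. Values at 6 weeks were 14.4, 15.1 and 16.9 CPM in the controls, 28.0 and 31.2 CPM after 65 Gy and 27.1, 30.4 and 35.9 CPM after 75 Gy. All 11 irradiated libraries lay above all 6 controls, and the 4 irradiated groups overlapped one another. The share of all genes that separate over both times in this way was not counted. Within 1 time and dose it was between 15.5% and 29.4%. The log2 fold change for 75 Gy was 1.08 (SE 0.23, adjusted p = 0.00336) at 2 weeks and 1.01 (SE 0.23, adjusted p = 0.00325) at 6 weeks. For 65 Gy it was 0.75 (SE 0.22, adjusted p = 0.0460) and 0.94 (SE 0.25, adjusted p = 0.0206), which are below the fold limit of a call. Sfn stood close to that limit, and at 75 Gy and 2 weeks it was called in 4 of 6 fits without 1 library. Without library 3134 its value there was 0.73 (adjusted p = 0.0146, quasi-likelihood test), and the call was also lost without control library 3126. At 6 weeks it was 0.91 without library 3143, 0.96 without 3135 and 0.99 without 3136. Its rise after 75 Gy passed the adjusted p in all 6 such fits at each time, and its rise after 65 Gy in 2 of 6 fits at 2 weeks and 1 of 5 at 6 weeks.

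**Figure D2:**
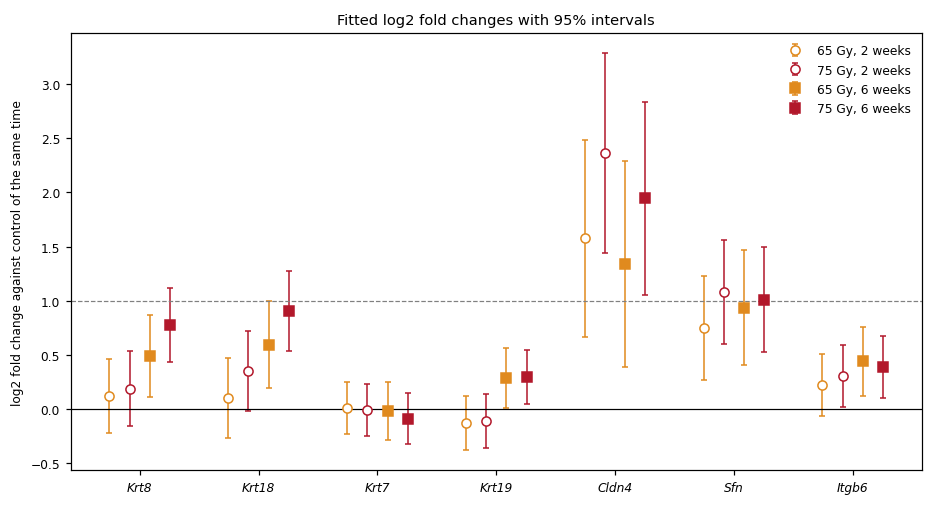
Log2 fold change of each gene against the controls of the same time (points) with its 95% interval (bars), for 65 Gy (orange) and 75 Gy (red) at 2 weeks (open circles) and 6 weeks (filled squares); the dashed line is the fold limit of a call. Cldn4 and Sfn lie above 0 in all 4 comparisons, and Krt8 and Krt18 lie higher at 6 weeks than at 2 weeks.

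Krt8 is the type II keratin by which the transitional cells are named. At 2 weeks it measured 219.7, 169 and 162 CPM in the controls, 199, 172 and 228 CPM after 65 Gy and 204, 165 and 259 CPM after 75 Gy. The 6-week values were 167, 177 and 164 CPM in the controls, 228 and 248 CPM after 65 Gy and 247, 298 and 326 CPM after 75 Gy. At 2 weeks the groups overlapped throughout, and at 6 weeks the 5 irradiated libraries were the highest. The log2 fold change was 0.78 (SE 0.16, adjusted p = 0.00202) for 75 Gy at 6 weeks and 0.49 (SE 0.18, adjusted p = 0.0781) for 65 Gy at 6 weeks. At 2 weeks it was 0.19 for 75 Gy (95% interval -0.15 to 0.53, adjusted p = 0.434) and 0.12 for 65 Gy (-0.22 to 0.46, adjusted p = 0.701). In the order of group means, from 169.6 CPM in the 6-week controls to 290.5 CPM at 75 Gy and 6 weeks, each group overlapped its neighbours.

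Krt18, the type I partner of Krt8, followed it. It measured 116, 75.6 and 85.1 CPM in the controls at 2 weeks, 105, 89.8 and 102 CPM after 65 Gy and 105, 94.0 and 154 CPM after 75 Gy. At 6 weeks it measured 90.4, 92.8 and 93.8 CPM in the controls, 132 and 147 CPM after 65 Gy and 158, 165 and 197 CPM after 75 Gy. At 6 weeks the 3 groups did not overlap, with the controls lowest and 75 Gy highest. The log2 fold change was 0.91 (SE 0.17, adjusted p = 0.00108) for 75 Gy at 6 weeks and 0.60 (SE 0.19, adjusted p = 0.0467) for 65 Gy at 6 weeks, and the latter passed in none of 5 fits without 1 library (adjusted p from 0.0955 to 0.237). At 2 weeks it was 0.35 for 75 Gy (95% interval -0.01 to 0.72, adjusted p = 0.158) and 0.10 for 65 Gy (-0.26 to 0.47, adjusted p = 0.769). Without the control library 3126 the 75 Gy value at 2 weeks was 0.56 and passed (adjusted p = 0.0219), and without library 3134 it was 0.11 (adjusted p = 0.667).

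Krt7 and Krt19 are the other simple keratins of the group. Krt7 measured 262 to 353 CPM in the 2-week controls, 273 to 314 CPM after 65 Gy and 277 to 318 CPM after 75 Gy. At 6 weeks it measured 280.3 to 304 CPM in the controls, 266 and 313 CPM after 65 Gy and 272 to 283 CPM after 75 Gy. Its libraries overlapped in every comparison, and the log2 fold changes of the 4 irradiated groups lay between -0.09 and 0.01; the widest of their 95% intervals toward lower values reached -0.32 and toward higher values 0.25. Krt19 measured 192, 149 and 143 CPM in the 2-week controls, 145, 135 and 162 CPM after 65 Gy and 149, 138 and 161 CPM after 75 Gy. At 6 weeks it measured 132, 148 and 148 CPM in the controls, 172 and 178 CPM after 65 Gy and 165, 164 and 197 CPM after 75 Gy. The 5 irradiated libraries of 6 weeks were above all 3 controls, with log2 fold changes of 0.30 (SE 0.12, adjusted p = 0.0577) for 75 Gy and 0.29 (SE 0.13, adjusted p = 0.147) for 65 Gy, neither of which passed. At 2 weeks its values were -0.11 and -0.13, with adjusted p = 0.544 and 0.539.

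Itgb6 measured 92.7, 56.7 and 70.5 CPM in the 2-week controls, 93.1, 81.5 and 81.8 CPM after 65 Gy and 96.2, 81.2 and 95.4 CPM after 75 Gy. The 6-week values were 55.4, 55.3 and 55.8 CPM in the controls, 73.8 and 77.0 CPM after 65 Gy and 78.2, 71.4 and 68.2 CPM after 75 Gy. The 6-week controls were the lowest and closest set of libraries, and at 2 weeks control library 3126 lay among the irradiated ones. The log2 fold change was 0.39 (SE 0.13, adjusted p = 0.0353) for 75 Gy at 6 weeks, which passed in none of 6 fits without 1 library (adjusted p from 0.0512 to 0.132). Without control library 3126 the 2-week values passed, at 0.52 for 75 Gy (adjusted p = 0.00369) and 0.43 for 65 Gy (adjusted p = 0.0223). It was 0.44 (SE 0.15, adjusted p = 0.0589) for 65 Gy at 6 weeks and, at 2 weeks, 0.31 (adjusted p = 0.112) for 75 Gy and 0.22 (adjusted p = 0.334) for 65 Gy. Itgb6 had its highest group mean at 75 Gy and 2 weeks (90.9 ± 8.48 CPM, SD, n = 3) and its lowest in the 6-week controls (55.5 ± 0.303 CPM, n = 3). Between the control times, 6 weeks minus 2 weeks, the log2 difference was -0.40 (SE 0.13, adjusted p = 0.163, edgeR's quasi-likelihood test), which did not pass.

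The doses were compared directly. No member passed between 75 Gy and 65 Gy at 2 or 6 weeks, and none reached an unadjusted p of 0.05 (quasi-likelihood test; DESeq2 called 0 members). Over all genes this test called 0 at either time, with 1570 and 1431 genes under an unadjusted p of 0.05, and DESeq2 called 7 and 14. The intervals leave room for differences. At 6 weeks the log2 difference, 75 Gy minus 65 Gy, was 0.61 for Cldn4 (95% interval -0.36 to 1.58), 0.29 for Krt8 (-0.10 to 0.67), 0.31 for Krt18 (-0.10 to 0.72) and 0.07 for Sfn (-0.46 to 0.60). At 2 weeks it was 0.78 for Cldn4 (-0.08 to 1.65), and -0.13 without library 3134.

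The effect of irradiation at 6 weeks was also compared with its effect at 2 weeks. For 75 Gy the difference of log2 fold changes, 6 weeks minus 2 weeks, was 0.59 for Krt8 (95% interval 0.10 to 1.07), 0.56 for Krt18 (0.04 to 1.07) and 0.41 for Krt19 (0.06 to 0.76), with unadjusted p = 0.0211, 0.0365 and 0.0254. None of these passed the adjustment (adjusted p = 0.237 for Krt8, quasi-likelihood test), where 0.299% of all genes did. For Cldn4 the difference was -0.41 (-1.65 to 0.82), for Sfn -0.07 (-0.75 to 0.60) and for Itgb6 0.08 (-0.33 to 0.48). For 65 Gy the only member whose interval excluded 0 was Krt19, at 0.42 (0.05 to 0.79), and no member passed the adjustment (0.0136% of all genes did). A rise of Krt8 and Krt18 that differs between the times is therefore not established here, although the rise passed at 6 weeks and not at 2 weeks.

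Levels can be compared between the genes once divided by transcript length, which was 1437 bases for Krt18, 1576 for Krt19, 1613 for Sfn, 1816 for Cldn4, 1958 for Krt8, 4094 for Krt7 and 4806 for Itgb6. In the 6-week controls Krt19 was highest with 90.6 CPM per kilobase, followed by Krt8 (86.6), Krt7 (71.6), Krt18 (64.2), Itgb6 (11.5), Sfn (9.58) and Cldn4 (3.14). At 75 Gy and 6 weeks the order was Krt8 (148 CPM per kilobase), Krt18 (121), Krt19 (111), Krt7 (67.4), Sfn (19.3), Itgb6 (15.1) and Cldn4 (12.1). The keratins were thus plentiful in unirradiated lung, while Cldn4, the gene with the largest fold changes, was the lowest member in every group.

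Ratios of counts within a library do not depend on its scaling. Krt8 to Krt7 was 0.568 to 0.645 in the 6 controls, 0.825 ± 0.0462 (SD, n = 2) at 65 Gy and 6 weeks and 1.06 ± 0.167 (n = 3) at 75 Gy and 6 weeks. Krt18 to Krt19 was 0.507 to 0.685 in the controls, 0.799 ± 0.0389 at 65 Gy and 6 weeks and 0.986 ± 0.0240 at 75 Gy and 6 weeks. In both ratios all 5 irradiated libraries of 6 weeks lay above all 6 controls, so that one keratin of each type stood higher against another of the same type. Krt8 to Krt18 changed less, with 1.75 to 2.24 in the controls and 1.56 to 2.24 in irradiated lung, and these overlapped.
Epcam, an adhesion gene of epithelium, measured 57.9 to 74.1 CPM over the 17 libraries. Against Epcam, Cldn4 was at 0.0385 to 0.102 in the controls and at 0.108 to 0.419 in irradiated lung. Sfn to Epcam was 0.215 to 0.333 in the controls and 0.376 to 0.815 in irradiated lung. Over both times the ratios of 3 keratins to Epcam overlapped between control and irradiated lung. They were 2.34 to 3.63 and 2.46 to 4.41 for Krt8, 1.04 to 1.91 and 1.30 to 2.66 for Krt18, and 3.63 to 5.83 and 3.68 to 5.49 for Krt7. Per unit of Epcam RNA, Cldn4 and Sfn thus separated control from irradiated libraries over both times, Cldn4 by a narrow gap. In CPM Sfn did the same, while Cldn4 did so only within a time. Irradiated library 3132 of 2 weeks was at 6.23 CPM of Cldn4 and control library 3137 of 6 weeks at 7.12 CPM. The share of all genes that separate in this way per unit of Epcam was not counted. Epcam is a single gene, and of 18 genes of epithelium in general 3 rose and 5 fell at 75 Gy and 6 weeks. These ratios are therefore not a correction for the amount of epithelium.

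**Figure D3:**
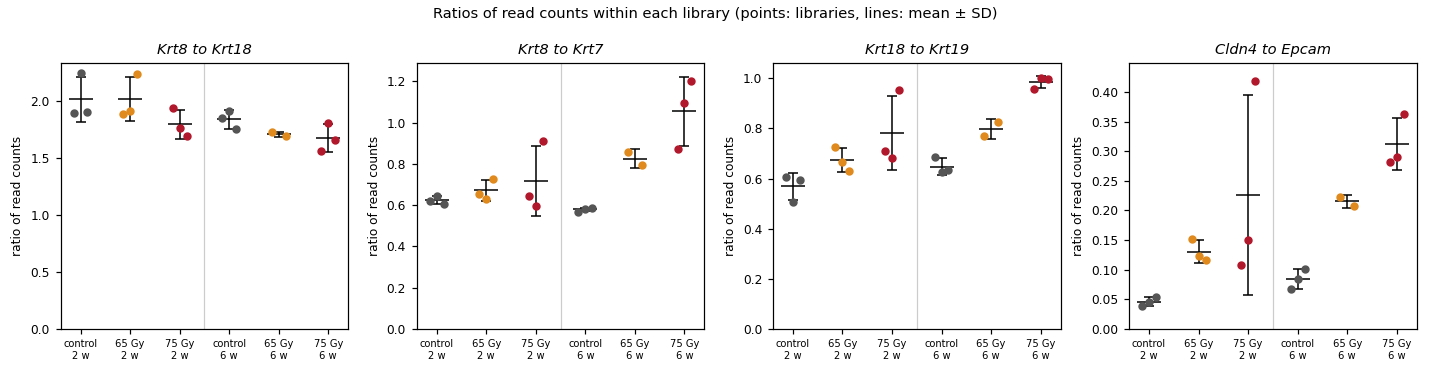
Ratios of read counts within each library (vertical axes, from 0) by group, with a point per library and the mean ± SD. Krt8 to Krt18 overlaps between control and irradiated lung, while Krt8 to Krt7 and Krt18 to Krt19 are highest at 75 Gy and 6 weeks and Cldn4 to Epcam is higher in all irradiated groups.

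Library 3134 had the highest value of its group for 5 of the 7 members, all but Krt7 and Itgb6, together with the lowest Sftpc, Ager and Scgb1a1 of all libraries (8368, 1160 and 5307 CPM). Control library 3126 was the highest of its group for 5 members and the lowest for Cldn4 and Sfn. At 75 Gy and 6 weeks library 3143 was highest for 5 members. The members therefore did not form a single score: over the 17 libraries, with each gene's log2 CPM scaled to an SD of 1, the root mean square difference was 0.307 SD between Krt8 and Krt18, the most alike pair, and 1.59 SD between Krt7 and Cldn4, the least alike. The profiles share the libraries and their scaling, and are given as a description.

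**Figure D4:**
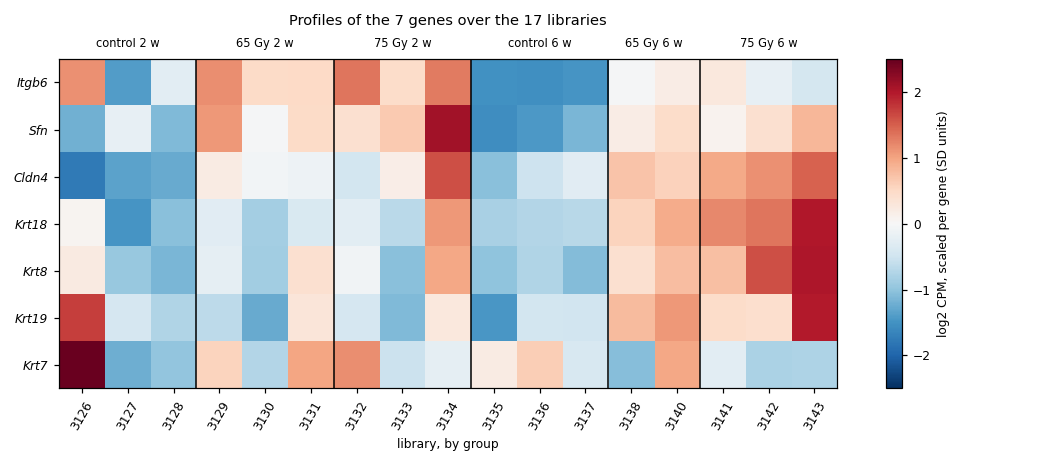
Log2 CPM of the 7 genes (rows), scaled per gene to SD units (colour), in the 17 libraries (columns, by group). Krt8, Krt18 and Cldn4 have their highest group mean at 75 Gy and 6 weeks, Itgb6 and Sfn have their highest mean at 75 Gy and 2 weeks, and Krt7 is highest in control library 3126.

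Of the 14482 tested genes whose log2 CPM averaged 1 or more, the gene nearest to Krt18 in this measure was Dnase1l1 (0.251 SD), then Krt8 and Ctsl, which encodes the protease cathepsin L, and nearest to Krt8 was Krt18, then Ebp and Dnase1l1. The nearest to Cldn4 were Qars (0.281 SD), H2-Eb1 and Cd74, of which the latter 2 serve antigen presentation by MHC class II. Nearest to Sfn were Cox5a (0.271 SD), Slc7a7 and Gm11960, and nearest to Itgb6 were P4hb (0.298 SD), Gtf2e1 and Faap24. Krt19 and Krt7 had no close neighbours: the nearest were Mrps17 at 0.552 SD, Bcap31 and Krt8 for the former, and Usp39 at 0.548 SD, Wnt7a and Cul5 for the latter. The mean profile of the 7 members was nearest to Cib1 (0.295 SD), Nhp2, Anxa4, Blvra and Sdhb.

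Other genes of the transitional state were read from a list of 26. This list and those that follow were chosen with earlier results of these data known, so their counts of risen and fallen genes can reflect that choice. At 75 Gy, 13 of the 26 rose at 2 weeks and 17 at 6 weeks, with none falling. At 65 Gy, 8 rose at 2 weeks and 12 at 6 weeks, with 0 falling. Of all genes tested, the share that rose was 11.8% and 18.0% at 75 Gy and 6.70% and 7.66% at 65 Gy, in the same order. The share that fell was 10.5% and 18.0% at 75 Gy and 4.29% and 7.01% at 65 Gy. These shares also stand beside the counts of the lists that follow. The medians of the list were 0.44 and 1.10 on the log2 scale for 75 Gy and 0.29 and 0.77 for 65 Gy. Cdkn1a, the p53-induced inhibitor of the cell cycle, had lower means at 6 weeks than at 2 weeks in both arms. They were 99.9 and then 48.7 CPM in the controls, and 476 and then 258 CPM at 75 Gy. Its log2 fold changes were 2.25 and 2.41 for 75 Gy at 2 and 6 weeks (adjusted p = 6.51e-07 and 2.33e-07, quasi-likelihood test). Fn1, encoding fibronectin, had 1.47 and 1.31 (adjusted p = 9.50e-06 and 1.82e-05), and Clu, encoding the chaperone clusterin, 0.80 and 1.61 (adjusted p = 0.00271 and 1.24e-05). Without library 3134 the count at 75 Gy and 2 weeks was 8, and without library 3126 it was 17; at 65 Gy and 2 weeks it lay between 5 and 12 over the fits without 1 library. Several of these genes, such as Fn1 and Cdkn1a, are also expressed outside the epithelium.
Areg and Ereg of this list, named after their values were seen, encode ligands of the epidermal growth factor receptor. Areg measured 5.45 to 12.7 CPM in the 2-week controls and 5.47 to 10.1 CPM at 75 Gy and 2 weeks, but 2.34 to 3.68 CPM in the 6-week controls and 12.5, 23.9 and 26.6 CPM at 75 Gy and 6 weeks. Its effect at 6 weeks exceeded that at 2 weeks by 2.97 on the log2 scale (SE 0.55, adjusted p = 0.0329, quasi-likelihood test), and at 75 Gy it was the only gene of the 26 to pass this test of the difference. Ereg was at 0.153 to 0.609 CPM in the 2-week controls and 0.718 to 5.73 CPM after 75 Gy, and at 0.125 to 0.243 CPM and 4.25 to 8.71 CPM at 6 weeks. Both genes were called at 75 Gy and 6 weeks, Ereg also at 2 weeks.

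Most listed targets of p53, which also induces Sfn, rose at both times. Of 16, 14 rose at 75 Gy and 2 weeks (11.8% of all genes rose) and 13 at 6 weeks (18.0%). After 65 Gy 14 and 11 rose (6.70% and 7.66%), and none fell in these comparisons. Gdf15, a stress cytokine, had log2 fold changes of 3.90 and 3.07 for 75 Gy at 2 and 6 weeks (adjusted p = 7.65e-11 and 2.08e-09), Psrc1 3.83 and 3.74 and Phlda3 1.90 and 1.55. The medians of the list were 1.12 and 0.93 for 75 Gy and 1.20 and 0.95 for 65 Gy. Fas and Plk2 did not pass at 75 Gy, with -0.21 and 0.06 at 2 weeks.

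The genes of the other epithelial cells moved in several directions. Of 14 type 1 markers, 10 fell and 1 rose at 75 Gy and 2 weeks, and 11 fell at 6 weeks, where the median was -0.71; Clic5 had -0.62 and -0.90 and Lmo7, which links adherens junctions to the cytoskeleton, -0.46 and -0.76. At 65 Gy 4 and 8 type 1 genes fell. The 4 became 0 without library 3129, 1 without 3128 or 3131 and 2 or 3 without the others, and the 8 became 0 without library 3138 and 1 to 5 without any other. Ager itself was at -0.23 and -0.35 for 75 Gy and did not pass. Of 14 type 2 markers, 2 rose at 75 Gy and 2 weeks and 7 rose and 1 fell at 6 weeks (median 0.50), among them Chil1 (1.31) and Sftpd (1.13), the surfactant collectin. At 65 Gy 2 and 4 rose, and the 4 became 1 or 2 in each of 5 fits without 1 library. Without library 3141 the counts for 75 Gy at 6 weeks were 4 rising and 3 falling. Sftpc did not pass, with 0.53 at 75 Gy and 6 weeks.
Of 12 airway secretory genes 3 fell at 75 Gy at each time and 1 at 65 Gy and 2 weeks; Scgb1a1 had -0.84 (adjusted p = 0.0102) and -0.69 (adjusted p = 0.0187) at 75 Gy. Without 1 library the falling ones were 1 to 4 at 75 Gy and 2 weeks, 2 to 4 at 6 weeks and 0 or 1 at 65 Gy. Among 10 ciliated genes 1 fell at 75 Gy and 2 weeks (0 or 1 without 1 library), 4 rose at 6 weeks (2 to 5), and Foxj1 did not pass. Of 12 mesothelial genes, which matter because mesothelium also makes Krt8, Krt18, Krt7 and Krt19, 1 fell at 75 Gy at each time (0 to 3 and 0 to 2 without 1 library) and 4 fell at 65 Gy and 6 weeks, but 0 without library 3138 or 3140. The summed CPM of the 12 was 227 to 311 in the 2-week controls and 103 to 192 after irradiation, and 131 to 241 in the 6-week controls and 95.6 to 152 after irradiation. Msln did not pass in any of the 4 comparisons. The part of these cells in the values of the keratins was not tested.
Genes of airway basal cells were low: Krt5 had 0 to 137 counts per library, Trp63 was at most 3.82 CPM, and 10 basal genes together gave 2.88 to 17.5 CPM. Of these 10, 1 rose at 75 Gy and 2 weeks, 3 at 75 Gy and 6 weeks and 1 at 65 Gy and 6 weeks. The 3 became 1 without library 3135, 3136, 3142 or 3143 and 4 without library 3137, and the 1 at 65 Gy became 0 in 4 of 5 fits. Krt17 had 11 counts in the 6-week controls together and 82 at 75 Gy and 6 weeks. Krt6a had 0 and 23, and with no count in any control it was tested only because irradiated libraries lifted it over the filter. It stays among the 10 basal genes, and wherever it is among the risen, its rise is not a result. Which of the counts above include Krt6a is not given here, so each count of risen basal genes may be 1 lower without it. Of 18 genes of epithelium in general, 2 rose and 2 fell at 75 Gy and 2 weeks, 3 and 5 at 75 Gy and 6 weeks, and after 65 Gy 4 and 1 rose and none fell. Without 1 library the falling ones at 75 Gy and 2 weeks were 0 (3128, 3134) to 6 (3126), those at 6 weeks 2 to 5, and the rising ones at 65 Gy and 2 weeks 1 (3129, 3131) to 3. Epcam was at 0.00 and 0.07 for 75 Gy. Jup and Dsp, which encode plaque proteins of desmosomes, fell at 75 Gy and 6 weeks by 1.02 and 0.88 on the log2 scale.

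**Figure D5:**
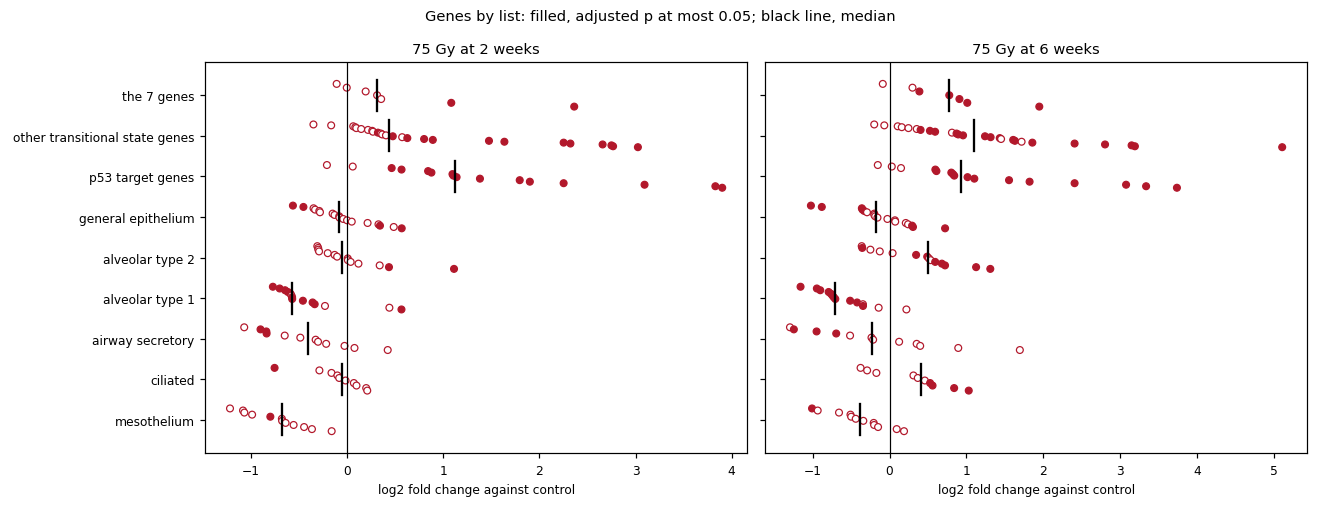
Log2 fold change of each tested gene (points) by list (rows) for 75 Gy against control at 2 weeks (left) and 6 weeks (right); filled points passed the adjusted p of 0.05 and black lines are medians. Most genes of the transitional state and p53 targets lie to the right of 0 and most type 1 genes to the left.

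Relatives of the members were examined by family. Of 12 further keratins and filament partners 11 could be tested. Krt20, a keratin of intestinal and urothelial lining, passed the filter only through irradiated libraries, so that it had to differ, and is given by its counts: it had 0 counts in each of the 6 controls, 0 to 7 counts after 65 Gy at 2 weeks, 5 to 9 after 75 Gy at 2 weeks, 38 and 26 after 65 Gy at 6 weeks and 32, 75 and 62 after 75 Gy at 6 weeks. Taking 3 counts over the control group as the floor, Krt20 was at least 58.0-fold higher at 75 Gy and 6 weeks and at least 31.2-fold higher at 65 Gy and 6 weeks, at levels of 0.995 and 0.535 CPM. Ppl, encoding periplakin, had -0.81 and -0.99 for 75 Gy (adjusted p = 0.00113 and 0.000164), and the median of the list was -0.25 and 0.05, also with Krt20 at its bound. In all, 3 of the 11 rose and 3 fell at 75 Gy and 2 weeks, and 1 and 4 at 6 weeks. The numbers were 1 and 2 at 65 Gy and 2 weeks and 2 and 2 at 65 Gy and 6 weeks. Krt20 is counted among the risen wherever it passed, and since the filter fixed its direction that part of the counts is not a result. Without 1 library the risen were 1 or 2 at 75 Gy and 2 weeks, and the fallen at 65 Gy and 6 weeks were 0 or 1.
Of 22 other claudins, 17 could be tested. Cldn2, which forms cation pores and so loosens the barrier, was called in all 4 comparisons, though at 65 Gy and 2 weeks in none of 6 fits without 1 library. It measured 0.357 to 0.768 CPM in the 6-week controls, 2.99 and 4.07 CPM after 65 Gy and 3.67 to 8.55 CPM after 75 Gy, with log2 fold changes of 2.80 and 3.66. Cldn5, the claudin of endothelium, fell by 0.96 at 2 weeks and 1.12 at 6 weeks after 75 Gy. After 75 Gy the claudins that rose and fell numbered 1 and 3 at 2 weeks, then 2 and 1 at 6 weeks. After 65 Gy they numbered 1 and 2, then 2 and 2, or 0 and 0 to 2, then 1 and 0 to 2, without 1 library, and all 4 medians lay between -0.21 and 0.01.
None of the 6 other members of the stratifin family was called; Ywhag rose at 75 Gy and 2 weeks (0.36, adjusted p = 0.0142) and Ywhab fell at 75 Gy and 6 weeks (-0.23, adjusted p = 0.0166), and the other 4 passed in none of the 4 comparisons. Ywhag did not pass without library 3134, nor Ywhab without 3136, 3142 or 3143. Of 7 other integrin beta subunits, Itgb2, the subunit of leukocytes, was called in all 4 comparisons, with 1.63 and 1.55 for 75 Gy. Itgb2 measured 110 to 157 CPM in the controls and 280 to 601 CPM in irradiated lung, without overlap. Itgb4, the hemidesmosome subunit, rose at 2 weeks after 75 Gy (0.79, adjusted p = 0.00234) and was at 0.02 at 6 weeks. After 75 Gy 3 of the 7 rose and none fell at 2 weeks, against 2 and 1 at 6 weeks. After 65 Gy the numbers were 2 and 0, then 1 and 1, and the latter fall was lost without library 3135, 3138 or 3140.
A list of 20 genes of alpha v integrins and TGF-beta activation, in which Itgb6 acts, changed both ways: the numbers higher and lower past the adjusted p were 5 and 4 at 75 Gy and 2 weeks, 6 and 5 at 75 Gy and 6 weeks, 3 and 2 at 65 Gy and 2 weeks and 2 and 2 at 65 Gy and 6 weeks, with medians of 0.10 at both times for 75 Gy. At 65 Gy and 6 weeks both counts became 0 without library 3138 or 3140, and at 75 Gy and 2 weeks they were 3 to 7 and 2 to 5 without 1 library. Tgfbi, a matrix protein induced by TGF-beta, had 1.90 at 75 Gy and 2 weeks (adjusted p = 0.000837) and 0.86 at 6 weeks (adjusted p = 0.0431), by the quasi-likelihood test. Its libraries of 75 Gy at 2 weeks spread widely, from 150 to 522 CPM (mean 287, SD 204), against 72.2 to 85.3 CPM in the controls. At 75 Gy and 6 weeks they lay between 144 and 166 CPM. A difference of Tgfbi between the times is therefore not read from these values. Smad7, the inhibitor of the pathway, fell by 0.63 and 0.97, and Itgb3, another partner of the alpha v subunit, was at -0.07 and -0.62.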

How the data were processed

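The authors trimmed the paired reads of stranded mRNA libraries (Trimmomatic), mapped them by HISAT2 on GRCm38.p6 and ran StringTie; the deposited values are whole, unnormalized read counts per gene. How they were derived from StringTie and whether strand was used are not given in the sources used here. The labels name an RNeasy kit and the study's methods QIAzol for RNA extraction. A single edgeR 4.0.16 model (R 4.3.3) covered the 17 libraries, with 1 coefficient per group, TMM factors, the default filterByExpr filter, the quasi-likelihood F test and Benjamini-Hochberg adjustment over the 22052 genes tested. Intervals are 95% intervals from the model. The members and lists were chosen with earlier results of these data known. From each list, up to 3 genes with the smallest p in any comparison of irradiated lung with control and the defining cell type genes are named; Krt8-ps, Gm33436, Areg, Ereg, Fas and Plk2 were named after their values were seen. Lengths are those of the GENCODE vM21 transcript that matches the RefSeq entry. On simulated counts (21596 genes, 75 Gy against control at 6 weeks) the test called 99 of 100 genes with a 4-fold and 46 of 100 with a 2-fold change. A 2-fold change lies on the fold limit itself, and 76 of those 100 genes passed the adjusted p. Of the 147 calls, 2 were false. Alternatives were RLE and upper-quartile factors, a looser and a stricter filter, DESeq2 1.42.0, edgeR's likelihood ratio test, the groups compared alone, no fold limit and leaving out each library; list counts without a library were added after the results were seen.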

Additional observations from a re-analysis of the deposited data

How the results depend on the processing

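No paired analysis was possible because the library numbers in the labels all differ and so match nothing between groups. At 75 Gy, 1 member was called at 2 weeks when only the groups compared were fitted (834 of 19644 genes), and 1 to 2 without 1 library. At 6 weeks 5 were called with no fold limit (7935 of 22052 genes), and 1 to 2 without 1 library. At 65 Gy and 2 weeks 2 were called with no fold limit (2422 of 22052 genes) and 0 without any 1 library. At 65 Gy and 6 weeks 1 was called with at least 10 counts in every library (864 of 17436 genes) and with DESeq2 (1337 of 22052). The likelihood ratio test (1505 of 22052) and the fit of only the groups compared (1316 of 20479) also called 1 there. With no fold limit 2 were called (3234 of 22052), and without 1 library 0 to 1. The cause of these differences was not tested, other than the fold limit itself.

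The values that changed sign were all close to 0 or not past the test. Krt7 was at 0.000809 (upper-quartile factors), 0.0196 (no filter except 1 count) and 0.00222 (10 counts in every library) for 75 Gy at 2 weeks. For 65 Gy at 6 weeks it was at 0.00733 (upper quartile) and 0.0117 (only the groups compared), between the doses at 2 weeks at 0.00243 (no filter) and 9.15e-05 (only the groups), and between the control times at 0.000790 (upper quartile). Krt19 between the doses at 6 weeks was at -0.00403 (RLE), -0.00386 (no filter) and -0.00404 (DESeq2). Krt18 between the control times was at -0.00826 (RLE and DESeq2), -0.00280 (no filter), -0.0102 (10 counts in every library) and -0.0210 (only the groups). Without 1 library, these log2 values also crossed 0. For 75 Gy at 2 weeks, the range was -0.0821 to 0.16 for Krt7 and -0.19 to 0.0418 for Krt19. For 65 Gy at 2 weeks, the range was -0.0218 to 0.31 for Krt18, -0.0663 to 0.17 for Krt7 and -0.21 to 0.0162 for Krt19. For 65 Gy at 6 weeks, the range was -0.13 to 0.11 for Krt7. Between the doses at 2 weeks, the range was -0.11 to 0.22 for Krt8, -0.0797 to 0.0267 for Krt7, -0.0400 to 0.0933 for Krt19, -0.13 to 1.16 for Cldn4 and -0.0123 to 0.51 for Sfn. Between the doses at 6 weeks, the range was -0.20 to 0.0386 for Krt7, -0.0829 to 0.0450 for Krt19 and -0.0401 to 0.14 for Sfn. Between the control times, the range was -0.20 to 0.0332 for Krt8, -0.12 to 0.20 for Krt18 and -0.0832 to 0.14 for Krt7. For the change of the 75 Gy effect, the range was -0.23 to 0.000255 for Krt7, -0.77 to 0.50 for Cldn4, -0.26 to 0.28 for Sfn and -0.13 to 0.23 for Itgb6. For the change of the 65 Gy effect, the range was -0.17 to 0.0996 for Krt7.

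The number of genes called at 75 Gy and 2 weeks was 1707, against 834 with only the groups compared and 4922 with no fold limit. The corresponding numbers with no fold limit were 7935 against 2297 for 75 Gy at 6 weeks, 2422 against 960 for 65 Gy at 2 weeks and 3234 against 1164 for 65 Gy at 6 weeks. Without 1 library they were 1097 to 2053, 1777 to 2548, 677 to 1010 and 604 to 953 in that order. DESeq2 and the likelihood ratio test called 301 and 332 genes for the change of the 75 Gy effect, against 56. For that of the 65 Gy effect DESeq2 called 78, against 3, and the likelihood ratio test more. Between the doses the likelihood ratio test called 13 genes at 2 weeks and 14 at 6 weeks. Between the control times DESeq2 called 225 genes, the likelihood ratio test 289, the fit of only those groups 32 and the test with no fold limit 359, against 127. With 2 or 3 libraries per group, the intervals of the members remained wide.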
